A study of Mus musculus with 384 samples.

Results

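Lefty1 and Lefty2 are neighbouring genes on mouse chromosome 1, and they are described here together with Sde2, Tmem63a and Ephx1, which lie on either side of them. These 5 genes, of 31617 counted, were chosen by their position near Lefty1 and selected on CPM values already seen in these cells, so their levels and their likeness to one another are given as a description, without a test. Single cells of 4 mouse pluripotent stem cell lines were sorted into plates and sequenced by Smart-seq2, which copies full-length mRNA, with 96 cells from each line. Formative stem (FS) cells, which were derived to capture the epiblast stage between naive and primed pluripotency, were represented by lines 5ar1 and 5ar2. Both were grown in AloXR medium. It holds activin at 3 ng/ml, XAV939, a tankyrase inhibitor that dampens Wnt signalling, at 2 μM, and BMS493, which keeps retinoic acid receptors silent, at 1 μM. Epiblast stem cells (EpiSCs), the primed state, were represented by line AFX6 in AFX medium, which holds activin at 20 ng/ml, Fgf2 and XAV939 at 2 μM, and by line AF32 in AF medium, with the same activin and Fgf2 but no XAV939. Each EpiSC medium has 1 line, so the line and the medium cannot be told apart. Of the 384 cells, 326 had at least 3000000 counts and were kept, namely 90 from each FS line, 66 from AFX6 and 80 from AF32. These had between 3022666 and 6686007 counts each. Levels are counts per 1000000 counts of a cell (CPM), and a pooled level is the same ratio for the summed counts of all kept cells of a line.

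Lefty1 and Lefty2 are secreted members of the TGF-β family that block Nodal signalling. Nodal and activin bind the same receptors and activate SMAD2 and SMAD3, which act with the transcription factor FOXH1, and the Lefty genes are among the genes that this signal switches on. The Lefty proteins bind Nodal and its co-receptor, so the loop restrains itself. In the mouse embryo Lefty1 marks the anterior visceral endoderm and later the left side of the midline, and Lefty2 marks nascent mesoderm and the left lateral plate. The neighbours have other roles. Tmem63a encodes an ion channel of the cell membrane that opens on stretch, Sde2 a protein of replication stress and splicing, and Ephx1 the microsomal epoxide hydrolase that detoxifies foreign compounds.

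In the GENCODE M21 annotation of GRCm38 the genes lie in the order Sde2, Lefty2, Lefty1, Tmem63a and Ephx1. Lefty1 occupies chr1:180935022-180938400 on the plus strand. Lefty2 occupies chr1:180893108-180899103, also on the plus strand, and starts 41.9 kb before Lefty1. Tmem63a, at chr1:180942344-180975112 on the plus strand, starts only 7.32 kb after Lefty1. Sde2 (chr1:180851127-180868113, plus strand) starts 83.9 kb before Lefty1, and Ephx1 (chr1:180976210-181020904, minus strand) starts 85.9 kb after it. An antisense gene, 2210411M09Rik, overlaps Tmem63a, but its pooled level was at most 0.0112 CPM in any line. Smart-seq2 does not keep the strand, so reads of overlapping genes on opposite strands cannot be told apart.

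The Lefty genes are close copies of each other. Their coding sequences in the GENCODE transcripts, of 1104 bases each, were identical at 1016 of 1103 aligned bases (92.1%), with a longest identical run of 140 bases. The reads were 101 bases long at each end of a fragment, and 70 of the 1004 coding windows of that length in Lefty1 (6.97%) occur without a difference in Lefty2. Reads in those windows cannot be placed uniquely unless the other end of the fragment can, and the authors counted uniquely mapped reads.

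Lefty1 was high in EpiSCs and almost absent from most FS cells. Its level per cell had a median of 0.389 CPM in 5ar1 (0 to 181 CPM) and of 2.2 CPM in 5ar2 (0.411 to 197 CPM). In AFX6 the median was 330 CPM (2.7 to 3164 CPM), and in AF32 it was 3520 CPM (28.1 to 11127 CPM). The ranges overlapped: the lower quartile of AFX6 was 105 CPM, below the highest cell of either FS line, and its lowest cell lay below the upper quartile of 5ar2 (3.15 CPM). The pooled level was 4.89 CPM for 5ar1 and 10.7 CPM for 5ar2, against 687 CPM for AFX6 and 3818 CPM for AF32. The mean over lines was 7.78 ± 4.09 CPM for FS cells and 2252 ± 2214 CPM for EpiSCs (SD, n = 2 lines each), a 289-fold difference, and the lower EpiSC line stood 64.4-fold above the higher FS line. The spread between the EpiSC lines was about as large as their mean.

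Within each class the lines also differed in Lefty1. AF32 held 5.56 times the pooled level of AFX6 (95% exact interval 5.53 to 5.58), and 5ar2 held 2.2 times that of 5ar1 (2.1 to 2.3). These intervals compare the summed reads of 2 lines and cover counting error only. The share of cells with over 5 CPM was 7 of 90 in 5ar1 (7.78%, exact 95% interval 3.18 to 15.4%) and 11 of 90 in 5ar2 (12.2%, 6.3 to 20.8%). It was 61 of 66 in AFX6 (92.4%, 83.2 to 97.5%) and 80 of 80 in AF32. In AFX6, 257 genes averaged 500 CPM or more, and among them the coefficient of variation of Lefty1 between cells (1.1) ranked 8 from the highest, where the median gene had 0.424. In AF32 it was 0.729 and ranked 22 of 257 genes, with a median of 0.368. Lefty1 was therefore one of the more unevenly expressed abundant genes in both EpiSC lines.

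**Figure D1:**
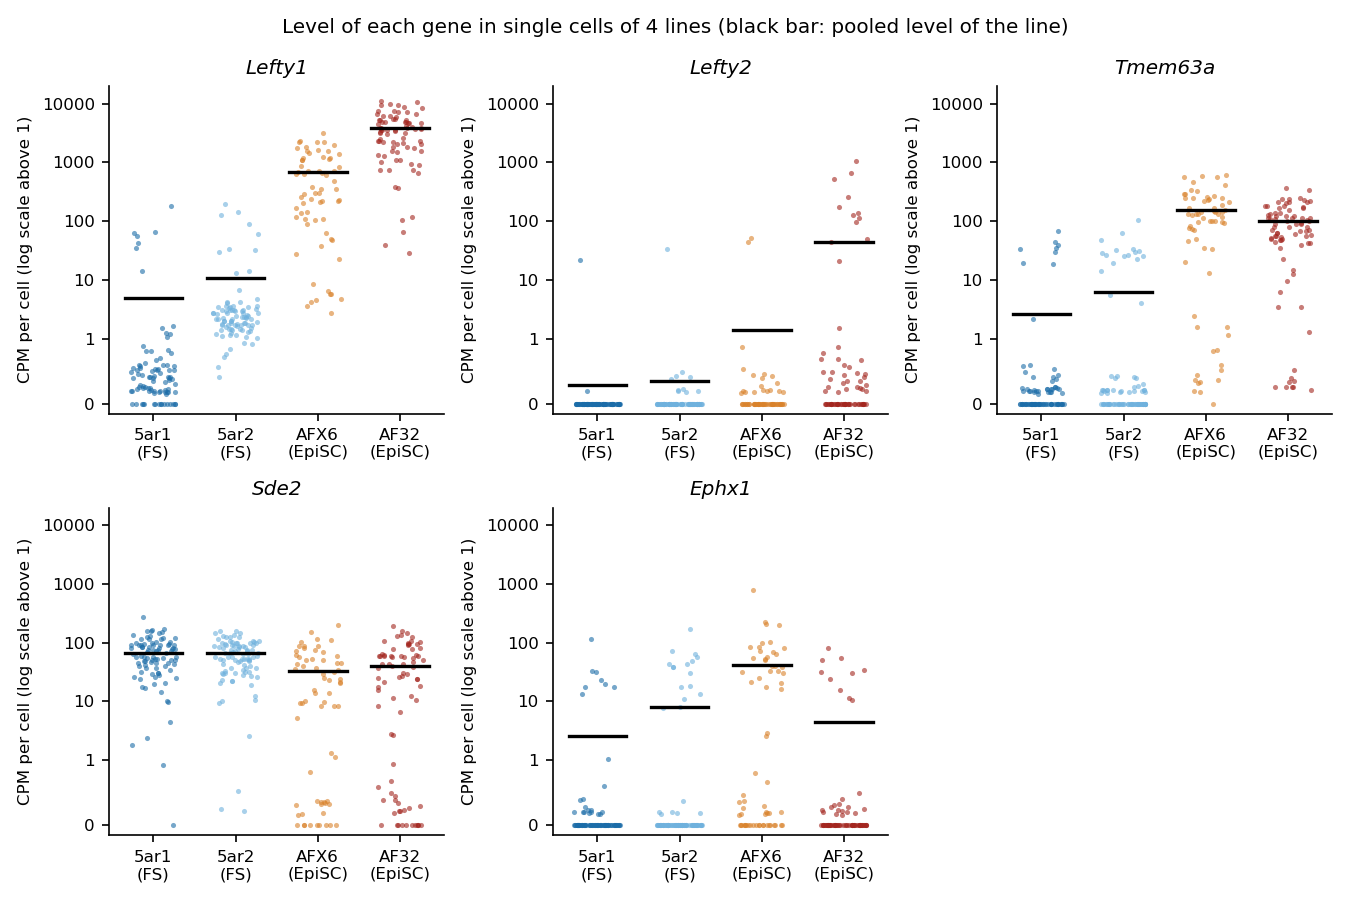
Level of Lefty1, Lefty2, Tmem63a, Sde2 and Ephx1 in each kept cell (points, CPM, linear from 0 to 1 and log above) of FS lines 5ar1 and 5ar2 (90 cells each) and EpiSC lines AFX6 (66 cells) and AF32 (80 cells), with black bars at the pooled level of the line. Lefty1 and Tmem63a separate most EpiSCs from most FS cells, Lefty2 is high in 12 cells of AF32 and few others, and Sde2 spans the same range in every line with more cells near 0 in EpiSCs.

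Most FS cells lay at or below the level at which genes that a line hardly holds were still counted. That level was gauged from 4 Y-linked genes (Eif2s3y, Ddx3y, Kdm5d and Uty), whose summed pooled level was 0.547 CPM in AFX6 and a mean of 197 CPM over the other lines, or 0.278% of it. The same share of the mean Lefty1 level of the other 3 lines is 4.19 CPM for 5ar1 and 4.18 CPM for 5ar2. At or below it lay 83 of 90 cells of 5ar1 and 78 of 90 of 5ar2, against 1 of 66 cells of AFX6 and 0 of 80 of AF32. The 10 highest cells held 93.8% of all Lefty1 counts of 5ar1 and 82.0% of those of 5ar2. The pooled FS levels thus came from a few cells. The share was measured in AFX6 alone, and whether it holds for the FS lines was not tested. Of the 4 genes, Kdm5d was held by 5ar1 only, at 10.7 CPM, against 0.0184 CPM in 5ar2 and 0 in AF32. Whether the remaining counts were carried over from other libraries was not tested.

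Lefty2 was rare in every line and appeared mainly in a small set of AF32 cells. A count of Lefty2 was found in 2 of 90 cells of 5ar1 and 10 of 90 of 5ar2, in 19 of 66 AFX6 cells and in 39 of 80 AF32 cells, and the median cell of every line had 0 CPM. The highest cell held 21.5 CPM among 5ar1 cells, 33.6 CPM among 5ar2, 51.0 CPM among AFX6 and 1061 CPM among AF32 cells. Cells over 5 CPM numbered 1, 1, 2 and 12 in the same order, so that most counts of Lefty2 sat in few cells. In AF32 the 10 highest cells held 98.2% of them. The pooled level was 0.288 CPM for 5ar1, 0.343 CPM for 5ar2, 1.4 CPM for AFX6 and 43.5 CPM for AF32. The EpiSC lines had a mean of 22.5 ± 29.8 CPM and the FS lines of 0.315 ± 0.0388 CPM (SD, n = 2 lines each). Per kilobase of exon, the pooled level in AF32 was 2172 CPM for Lefty1 and 16.7 CPM for Lefty2.

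Lefty2 did not simply scale with Lefty1. Of the 67 AF32 cells with over 1000 CPM of Lefty1, 30 had no count of Lefty2 and 10 had over 5 CPM. In AFX6 12 of 19 such cells had no count of Lefty2. The 12 AF32 cells with over 5 CPM of Lefty2 held between 672 and 6764 CPM of Lefty1 (median 3791 CPM), and the other 68 cells between 28.1 and 11127 CPM (median 3520 CPM). T (Brachyury), which marks the primitive streak and nascent mesoderm, was at most 0.470 CPM in each of the 12, while 2 of the other 68 cells had over 5 CPM. Pou5f1, which encodes Oct4, was between 196 and 858 CPM in the 12 cells.

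Tmem63a followed Lefty1 between FS cells and EpiSCs, but not between the EpiSC lines. The median cell had 0 CPM in 5ar1 (0 to 66.8 CPM) and 0 CPM in 5ar2 (0 to 103 CPM). It had 117 CPM in AFX6 (0 to 609 CPM) and 78.3 CPM in AF32 (0.213 to 362 CPM). Most EpiSCs thus held Tmem63a and most FS cells did not, with over 5 CPM in 8 of 90, 16 of 90, 50 of 66 and 68 of 80 cells of 5ar1, 5ar2, AFX6 and AF32. Pooled levels were 2.6, 6.3, 153 and 98.7 CPM in that order. The lower EpiSC line stood 15.8-fold above the higher FS line, and the means over lines were 126 ± 38.7 CPM and 4.44 ± 2.6 CPM (SD, n = 2 lines each), a 28.4-fold difference. AF32 held 0.643 times the level of AFX6 (95% exact interval 0.635 to 0.652, counting error only), opposite in direction to Lefty1. The level of 5ar1 rested on few cells, and over its cells of at least 4000000 counts alone it was 0.362 CPM.

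The promoters of Tmem63a, Sde2 and Ephx1 were read from RefSeq. That of Tmem63a is shown because this gene, of the 5, was most like Lefty1 in every line. The window of Tmem63a is the 300 bases at chr1:180942268-180942567 (GRCm38.p6, plus strand), of which 250 lie before the RefSeq start. That start lies downstream of the GENCODE start given above (180942344), so the window covers the first bases of the GENCODE gene. It holds 1 copy of the SMAD core CAGAC or its reverse GTCTG, in capitals. The FOXH1 core ATCCACA or its reverse TGTGGAT was not found, on either strand.
Tmem63a: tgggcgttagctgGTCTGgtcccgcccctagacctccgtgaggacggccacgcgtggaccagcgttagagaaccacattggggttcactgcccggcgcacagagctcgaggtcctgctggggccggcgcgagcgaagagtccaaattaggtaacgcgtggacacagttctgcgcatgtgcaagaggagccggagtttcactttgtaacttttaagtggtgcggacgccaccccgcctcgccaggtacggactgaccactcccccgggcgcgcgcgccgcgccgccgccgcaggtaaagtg
Of 32851 promoters of the same length, 49.6% hold the SMAD core and 3.38% the FOXH1 core, and those of Sde2 and Ephx1 hold 1 and 2 copies of the SMAD core. The window of Ephx1 (chr1:181017520-181017819, minus strand) lies inside the GENCODE gene and does not reach its GENCODE start (181020904). A match is a run of letters and not a bound site.

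Ephx1 was highest in AFX6, and there only in part of the cells. Its median was 0 CPM in 5ar1 (0 to 117 CPM), 5ar2 (0 to 171 CPM) and AF32 (0 to 82.2 CPM), and 0.418 CPM in AFX6 (0 to 799 CPM). Over 5 CPM were found in 8 of 90 cells of 5ar1 and 16 of 90 of 5ar2, against 28 of 66 AFX6 cells and 10 of 80 AF32 cells. Pooled levels were 2.6, 7.86, 40.9 and 4.4 CPM in that order, so AF32 lay between the FS lines and the classes overlapped. AFX6 held 9.30 times the level of AF32 (8.83 to 9.81). Without the 5 AFX6 cells whose chromosome 1 genes stood more than 1.2 times above those of their other autosomes, the level in AFX6 was 31.3 CPM.

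Sde2 ran the other way and was the only member lower in both EpiSC lines. The median cell had 58.5 CPM in 5ar1 (0 to 270 CPM) and 57.6 CPM in 5ar2 (0.217 to 160 CPM), against 14.8 CPM for AFX6 (0 to 197 CPM) and 26.4 CPM for AF32 (0 to 192 CPM). The ranges of the cells overlapped almost in full. Over 5 CPM were found in 85 of 90 cells of 5ar1 and 86 of 90 of 5ar2, but in only 43 of 66 AFX6 cells and 53 of 80 AF32 cells. The kept cells of AFX6 and AF32 also had fewer detected genes, with medians of 10328 and 10330.5. Those of 5ar1 and 5ar2 were 11371 and 11567.5. The part of this difference in the shares of Sde2 was not tested. Pooled levels were 67.1, 66.0, 33 and 39.9 CPM in that order. The EpiSC mean of 36.3 ± 5.18 CPM was 0.545 times the FS mean of 66.5 ± 0.772 CPM (SD, n = 2 lines each).

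Both directions were common among all genes. Both EpiSC lines lay above both FS lines for 3 of the 5 members (Lefty1, Lefty2 and Tmem63a) and for 21.5% of the 22606 genes with enough counts. Both lay below for 1 member, Sde2, and for 26.8% of genes. A difference of the means of at least 4 times with both EpiSC lines above was met by the same 3 members and by 4.26% of genes, but the members were chosen with these values known. edgeR's quasi-likelihood test over lines called 0 of 22606 genes (0%) at a Benjamini-Hochberg adjusted p under 0.05 and a log2 fold change over 1.4, with 3636 genes at an unadjusted p under 0.05. DESeq2 called 1806 genes at the same thresholds and limma 0.

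The wider neighbourhood did not move as a block. Within 500 kb of the start of Lefty1 lie 17 protein-coding genes of the table, of which 15 had enough counts and 14 reached 5 CPM in some line. Both EpiSC lines were above both FS lines for 6 of the 15, both below for 4, and the lines of the classes overlapped for 5. Over all genes tested, 21.5% were above and 26.8% below. The 6 include the members Lefty1, Lefty2 and Tmem63a and the 4 include Sde2, all chosen with these values known. H3f3a, which encodes the histone variant H3.3, had pooled levels of 799, 826, 823 and 1116 CPM in 5ar1, 5ar2, AFX6 and AF32. Parp1, a DNA repair enzyme, had 355, 314, 299 and 199 CPM, and Nvl, a ribosome assembly factor, 94.6, 85.3, 73.6 and 68.6 CPM. Cnih3, a receptor trafficking protein, had 7.5 and 9.12 CPM in the FS lines and 3.11 and 1.7 CPM in the EpiSC lines. Cnih4 lay between 77.8 and 93.0 CPM, Wdr26 between 23.4 and 36.9 CPM, Lin9 between 15.6 and 20.5 CPM and Acbd3 between 11.1 and 17.5 CPM over the 4 lines.

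Whether the neighbours follow Lefty1 from cell to cell was described by Spearman's rho of their CPM across the cells of each line. Cells of a line are not independent of each other and share library preparation, so no p is given. Tmem63a had a rho with Lefty1 of 0.181 over the 90 cells of 5ar1 and 0.268 over the 90 of 5ar2, and of 0.270 over the 66 AFX6 cells and 0.228 over the 80 AF32 cells. The mean was 0.237 ± 0.0419 (SD over 4 lines), and the value was positive in 4 of 4 lines. It exceeded 95.3%, 99.4%, 98.4% and 96.8% of the values of the 10282 to 10577 genes that averaged 5 CPM or more in the line. The relation was weak in size, and of the members it was the most even between lines. In the FS lines, 50 of 90 cells of 5ar1 and 49 of 90 of 5ar2 had no count of Tmem63a. Most FS cells also lay at or below the Lefty1 level gauged above from Y-linked genes. In 5ar1 both genes fell with the total count of the cell (rho −0.216 for Lefty1 and −0.329 for Tmem63a). Over its cells of at least 4000000 counts, the rho of Tmem63a with Lefty1 in 5ar1 was 0.123.

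The other members followed Lefty1 less. Lefty2 had a rho of −0.00469, 0.0644, 0.148 and 0.209 in 5ar1, 5ar2, AFX6 and AF32, with a mean of 0.104 ± 0.0936 (SD over 4 lines). Its values in the FS lines rest on 2 and 10 cells with a count. Ephx1 had a mean of 0.0295 ± 0.0752, with 0.133 in AFX6, and Sde2 of −0.00782 ± 0.0647. Neither had the same sign in all 4 lines.

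Of the wider neighbourhood, H3f3a, 121 kb upstream, had a rho with Lefty1 of 0.102, 0.0427, 0.218 and 0.332 in the same order of lines, and Cnih4, 210 kb downstream, was below 0 in 4 of 4 lines, with a mean of −0.112 ± 0.0696. Parp1, Lin9, Acbd3, Nvl, Wdr26 and Cnih3 each had both signs among the lines and means between −0.0344 and 0.0548. Likeness to Lefty1 therefore did not follow distance alone, since Sde2 starts nearer to Lefty1 than H3f3a does and was less like it.

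**Figure D2:**
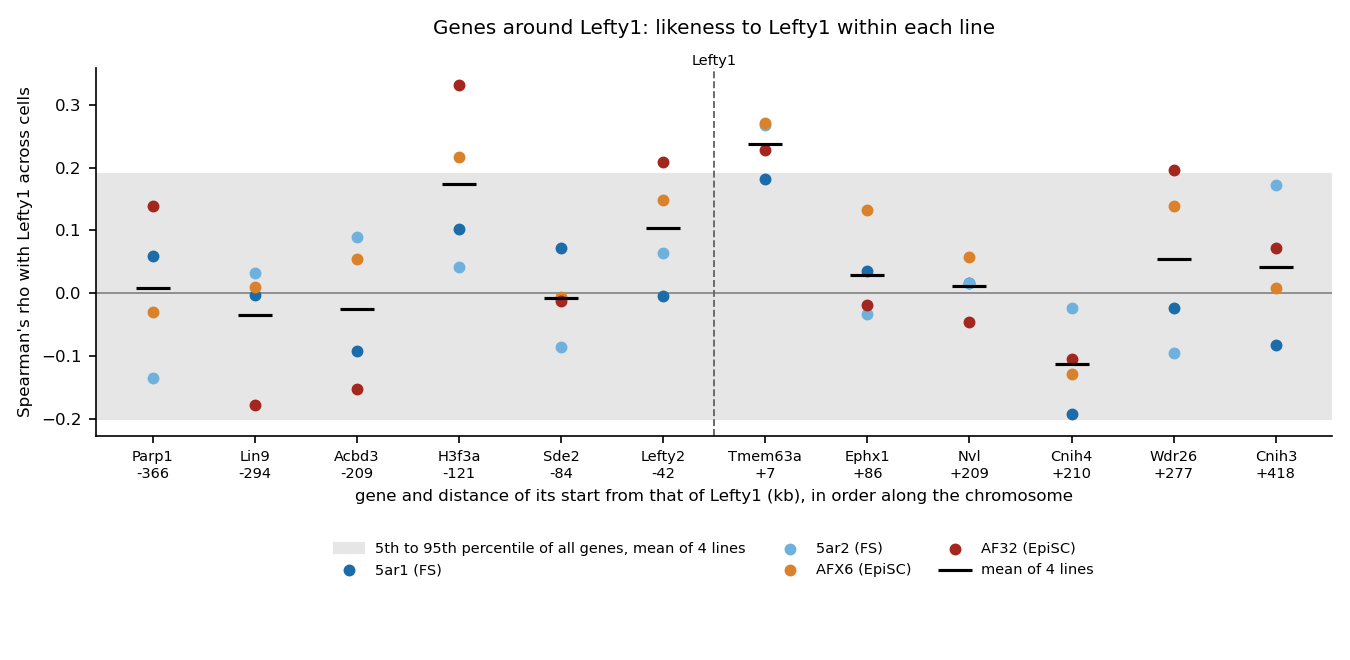
Spearman's rho of each gene with Lefty1 across the cells of a line (coloured points, 1 per line) and its mean over the 4 lines (black bars), for 12 protein-coding genes within 500 kb of Lefty1 that reach 5 CPM in some line, in order along the chromosome with the distance of their starts in kb. The mean of Tmem63a (0.237) lies above the grey band, and the other means shown lie inside it. The band spans the 5th to the 95th percentile of single-line values of all genes with at least 5 CPM. Means over the 4 lines spread less than single-line values. A mean inside the band, such as that of H3f3a (0.174), can therefore still be high among genes.

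**Figure D3:**
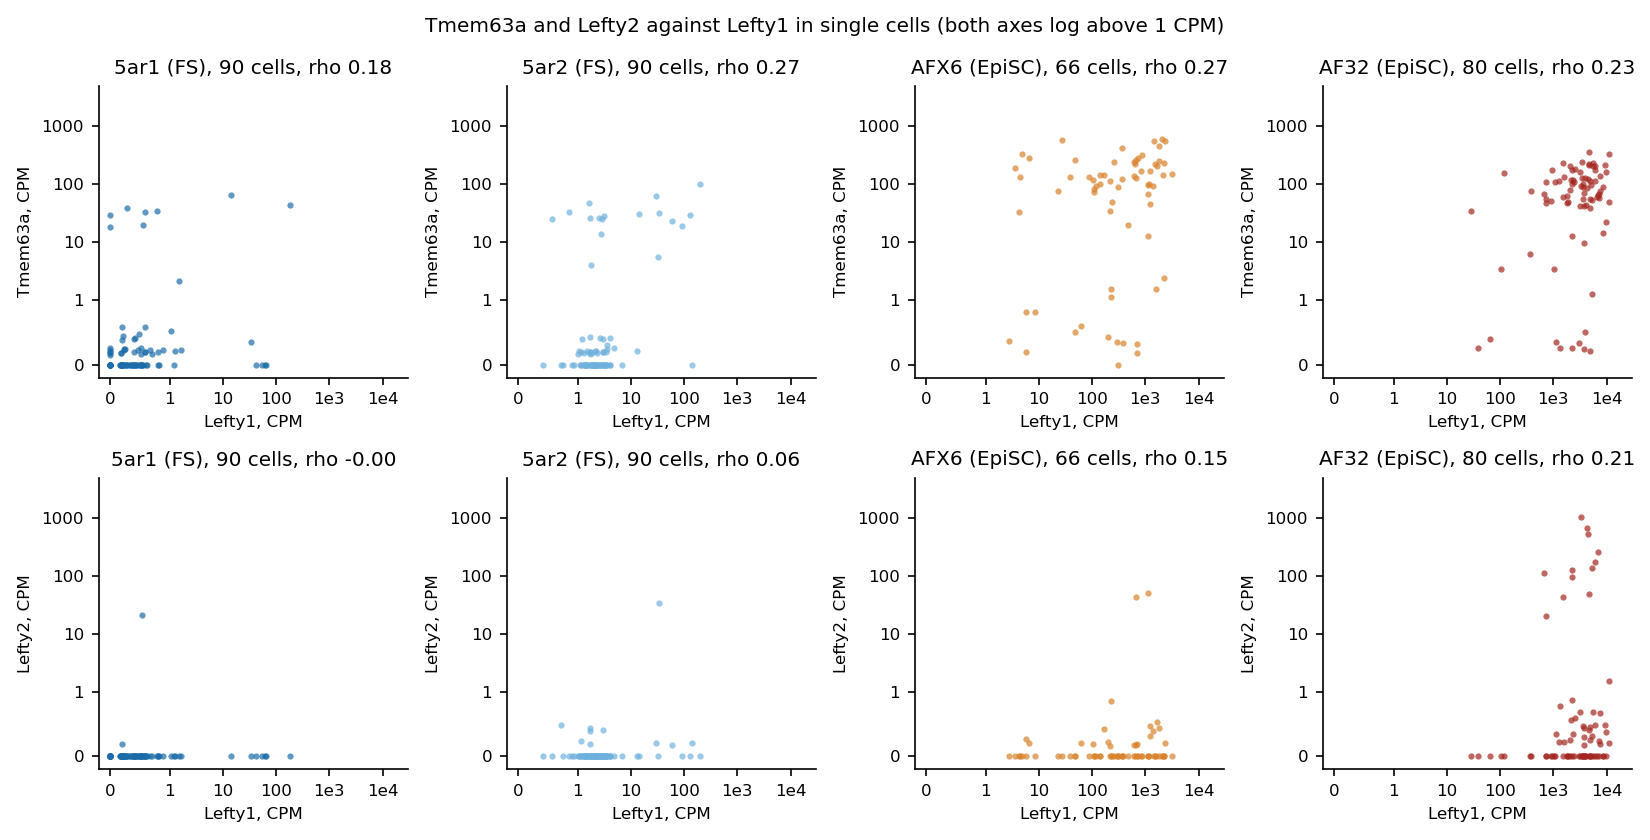
Tmem63a (upper row) and Lefty2 (lower row) against Lefty1 in single cells of 5ar1, 5ar2, AFX6 and AF32, in CPM on axes that are linear from 0 to 1 and log above, with 1 point per cell. Most FS cells lie near 0 for Tmem63a, though 10 of the 18 with over 5 CPM of Lefty1 have over 5 CPM of it, and many AF32 and AFX6 cells with high Lefty1 lie at 0 for Lefty2.

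The few FS cells with Lefty1 also held Tmem63a and genes of the Nodal loop in a larger share than the rest. Cells are not replicates, and the shares were not tested. Over both FS lines, 18 cells had more than 5 CPM of Lefty1 (6.7 to 197 CPM, median 48.5 CPM) and 162 had 5 CPM or less. Over 5 CPM of Tmem63a were found in 10 of the 18 (55.6%) and in 14 of the 162 (8.64%). Counted at over 10 CPM of Lefty1 in each line, Tmem63a passed 5 CPM in 2 of 7 against 6 of 83 cells of 5ar1, and in 8 of 10 against 8 of 80 of 5ar2, so most of the overlap came from 5ar2. Nodal itself passed 5 CPM in 12 of the 18 (66.7%) and 18 of the 162 (11.1%). Tdgf1, the Nodal co-receptor Cripto, did so in 12 (66.7%) and 67 (41.4%). The shares of Nodal and Tdgf1 pool both lines and were not split. Of the 18 cells, 7 were of 5ar1 and 11 of 5ar2. Tdgf1 passed 5 CPM in 32 of all 90 cells of 5ar1 and 47 of 90 of 5ar2, so the lines differ in it. Its rho with Lefty1 within lines, given below, was negative in 5ar1 and small in 5ar2.

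Other genes did not mark these FS cells. Eomes, a mesendoderm factor and Nodal target, passed 5 CPM in 13 of the 18 (72.2%) and 124 of the 162 (76.5%). Fgf5, a marker of formative epiblast, had medians of 240 and 226 CPM, and Pou5f1 of 477 and 575 CPM. Sde2 had medians of 66.2 and 57.2 CPM and H3f3a of 859 and 794 CPM. Ephx1 passed 5 CPM in 2 of the 18 and 22 of the 162 cells, and Lefty2 in 1 and 1.

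**Figure D4:**
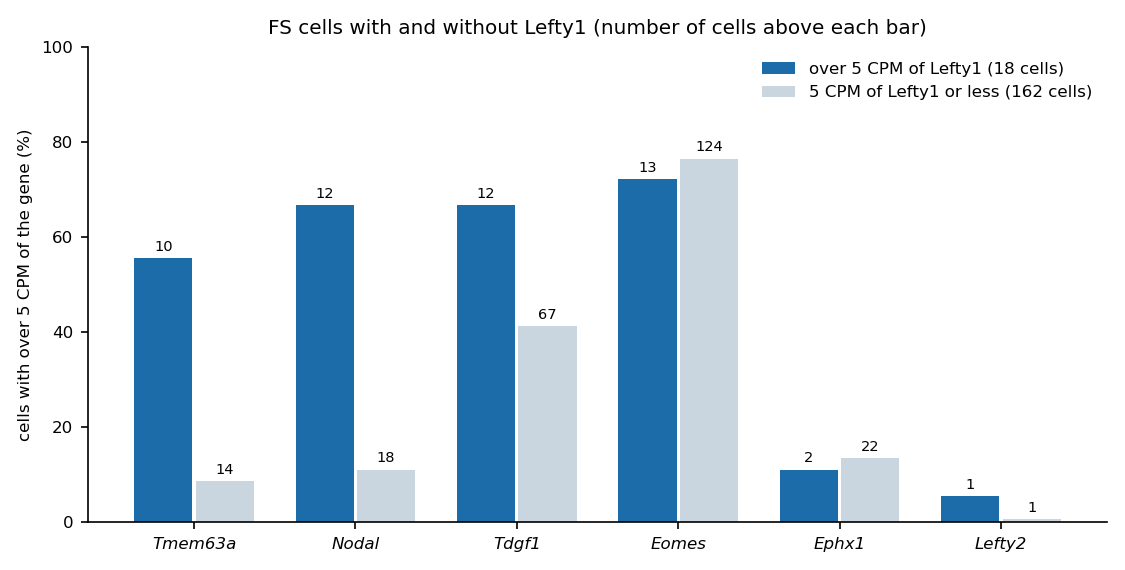
Share of FS cells (5ar1 and 5ar2 together, %) with over 5 CPM of each gene, among the 18 cells with over 5 CPM of Lefty1 (dark bars) and the 162 others (light bars), with the number of cells above each bar. The dark bars are higher for Tmem63a (55.6% against 8.64%), Nodal and Tdgf1, and close to the light ones for Eomes and Ephx1.

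In AFX6, 9 of 66 cells had 10 CPM of Lefty1 or less, and these cells were not without the neighbours. Tmem63a passed 5 CPM in 5 of the 9, against 45 of the other 57, and Ephx1 in 4 of the 9 against 24 of 57. Some AFX6 cells thus held Tmem63a with little Lefty1. Of the 5 AFX6 cells with the most Lefty1 (2190 to 3164 CPM), Tmem63a ranged from 2.4 to 560 CPM. In AF32 every cell had over 10 CPM of Lefty1, and 12 of the 80 had 5 CPM of Tmem63a or less.

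Over all 4 lines, the genes most like Lefty1 were sought among 7647 genes that averaged 10 CPM or more in every line. Among the 5 most like it were Tbrg1 (mean rho 0.205), S100a10 (0.204), Myo10 (0.201) and Med25 (0.197), where the median gene had −0.00788 and the 99th percentile was 0.136. The neighbour H3f3a, with a mean rho of 0.174, also lay above that percentile. Tmem63a had too few counts in the FS lines to enter that ranking. For Tmem63a itself, over AFX6 and AF32, the most like were Pex14 (0.354) and Fam160b2 (0.354) of 8241 genes, and Lefty1 ranked 78 with 0.249. Lefty2 had a count in less than 50% of the cells of every line, and no gene was ranked for it.

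The Nodal pathway around Lefty1 was followed with a list of 26 genes, of which 22 were measured and Gdf1, Inhbb, Acvr1c and Cer1 are not analysed here. edgeR called 0 of the 22 at an adjusted p under 0.05. At an unadjusted p under 0.05 stood 8 of the 22, against 3636 of all 22606 genes tested. The smallest adjusted p of edgeR in the list was 0.190, which was also the smallest over all genes. DESeq2 called 6 of the 22, against 1806 of all 22292 genes that it tested, and limma called 0. The log2 fold change of EpiSCs over FS cells was above 0 for 16 genes and below 0 for 6, with a median of 0.41 against 0.01 for all genes tested. Both EpiSC lines lay above both FS lines for 11 of the 22, against 21.5% of all genes. Both lay below for 5, against 26.8% of all genes. The list was chosen with earlier results of these data known, so these counts are a description.

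By role, the ligand Nodal and the co-receptor Tdgf1 were much higher in EpiSCs, but the measured ligands did not all move alike. Nodal had pooled levels of 5.46 and 5.32 CPM in 5ar1 and 5ar2 against 49.0 CPM in AFX6 and 94.7 CPM in AF32. The ligand Inhba was also higher in both EpiSC lines, at a low level. The ligand Gdf3 ran the other way, with 14.1 and 52.2 CPM in 5ar1 and 5ar2 against 0.204 CPM in AFX6 and 8.02 CPM in AF32. Tdgf1, the co-receptor Cripto that the Lefty proteins bind, had 27.4 and 36.7 CPM against 839 and 1398 CPM, a log2 fold change of 5.12 (edgeR adjusted p = 0.190). Its relative Cfc1 was at 0 in both FS lines and at 0.373 and 0.514 CPM in the EpiSC lines, so no fold is given. The target Eomes had 61.3 and 48.2 CPM in the FS lines and only 6.6 and 5.84 CPM in the EpiSC lines. The transducer Foxh1 had 209, 218, 267 and 142 CPM in 5ar1, 5ar2, AFX6 and AF32, and Smad2, Smad3 and Smad4 lay between 14.2 and 54.4 CPM in every line. Of the inhibitors, Smad7 had 10.3, 6.9, 16.3 and 21.5 CPM and Skil 44.4, 30.6, 77.4 and 75.5 CPM in the same order.

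Within lines, Nodal had a rho with Lefty1 of 0.183, 0.361, 0.209 and 0.279 in 5ar1, 5ar2, AFX6 and AF32, and was above 0 in 4 of 4 lines. Tdgf1 had −0.115, 0.0286, 0.303 and 0.159, and Foxh1 0.0463, 0.0465, −0.118 and 0.357. Against these, the rho of Tmem63a with Lefty1 was of the size of that of Nodal.

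The labelled cell types were checked by marker lists. Pou5f1, Sox2 and Nanog summed to between 541 and 946 CPM of pooled level in the 4 lines, and Otx2, Fgf5 and Pou3f1 to 468 and 483 CPM in the FS lines against 153 and 164 CPM in the EpiSC lines. Visceral endoderm, which also expresses Lefty1, was checked with 3 of 6 listed markers (Gata4, Gata6 and Amn): none reached 5 CPM in a line, and their sum was between 0.849 and 2.1 CPM. Hnf4a, Afp and Ttr are not analysed here. Definitive endoderm markers summed to between 0.301 and 7.98 CPM, early neural markers to between 2.2 and 8.80 CPM, and primitive streak markers to 61.5, 50.3, 7.87 and 46.7 CPM in 5ar1, 5ar2, AFX6 and AF32. In 5ar1 and 5ar2 the streak sum was nearly all Eomes, at 61.3 and 48.2 CPM, while T was at 0.144 and 0.179 CPM. In AF32, T made up 39.1 CPM of the streak sum, but that level came mostly from 1 cell with 2369 CPM. This cell had under 5 CPM of Pou5f1. Of the 80 AF32 cells, 69 had no count of T and 2 had over 5 CPM. The median AF32 cell had a streak sum of 0.197 CPM.

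In all, 6 cells had under 5 CPM of Pou5f1 and so lacked the defining marker, with 2 of 5ar1, 1 each of 5ar2 and AFX6, and 2 of AF32. The 2 of AF32 held 64.6 and 106 CPM of Lefty1, at the low end of that line, and the 1 of AFX6 held 379 CPM. Without them the mean rho of Tmem63a with Lefty1 was 0.230. Depth and chromosome dosage were set beside Lefty1 in the same way. Its rho with the total count of the cell was between −0.216 and 0.161 over the lines, with the number of detected genes between −0.131 and −0.00768, and with the ratio of chromosome 1 to the other autosomes between −0.0222 and 0.213. Lefty2 had 0.415 with that ratio in AF32, and its part in the likeness of Lefty2 to Lefty1 was not tested beyond leaving out cells, as only 1 AF32 cell had a ratio over 1.2.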

How the data were processed

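Smart-seq2 libraries of 384 single mouse cells were analysed. Per the labels and methods, the authors aligned paired 101-base reads to GRCm38.p6 with STAR 2.7.3a and counted uniquely mapped reads per gene with featureCounts 2.0.0, and they deposited these raw counts for 31617 genes. Of these, 31565 matched GENCODE M21 by gene ID. The authors also deposited sctransform values for 23574 genes in 326 cells, a depth-corrected score in whole numbers, used here only as an alternative. Alignment and counting were not repeated, and reads that map equally well to both Lefty genes are lost from the counts.

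Cells with at least 3000000 counts were kept, which left out 58. No 2 cells had identical counts (0). Line and medium came from the labels and the methods. CPM, pooled levels, exact (Clopper-Pearson) 95% intervals of shares and exact conditional 95% intervals of folds were computed with Python 3.11.15, numpy 2.4.6, pandas 2.3.3 and scipy 1.17.1. Reads carry no molecular identifiers, so intervals cover counting error only. Lines served as replicates, and each was sampled once, so SDs measure the spread between these lines. Counts summed per line went into the quasi-likelihood test of edgeR 4.0.16 in R 4.3.3, after filterByExpr and TMM scaling, with DESeq2 1.42.0 and limma 3.58.1 as alternatives, and the code was tested on simulated data. Spearman's rho was computed within lines and averaged over lines with equal weight.

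The members, lists and settings were chosen with earlier results of these data known. Genes are named by a rule: the 5 members, protein-coding genes within 500 kb of Lefty1 with at least 5 CPM in a line, the 5 genes most like Lefty1 and 3 most like Lefty2 and Tmem63a by mean rho, and the called genes of the Nodal list or, with none called, the 3 of largest change. Other genes of the Nodal and marker lists, the Y-linked genes, the cells with Lefty1 among FS cells and those without Pou5f1 were chosen after values were seen. Some genes that the rule names, and 1 sequence comparison, are not reported here. Promoter sequences come from RefSeq, transcripts from GENCODE M21. Plots were made with matplotlib 3.10.9.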

Additional observations from a re-analysis of the deposited data

How the results depend on the processing

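No paired analysis was possible because the numbers in the labels name single cells of a line, not a source shared between lines. The number of genes called between FS cells and EpiSCs was 0 in edgeR and stayed 0 with DESeq2's size factors, no filter, limma, no fold threshold, other depths and each line left out (lowest 0, highest 0), but was 1806 with DESeq2. The mean rho of Tmem63a with Lefty1 was 0.237, lay between 0.201 and 0.321 over all alternatives, and moved by more than its SD over lines only with Pearson r of log2(CPM + 1), to 0.321. That of Lefty2 (0.104) lay between 0.0636 and 0.178, that of Sde2 between −0.0345 and 0.0537 and that of Ephx1 between −0.00508 and 0.0616, so that the last 2 changed sign within their spread. Without AF32, the mean rho of Lefty2 was 0.0692. Leaving out the cells with a chromosome 1 ratio over 1.2, those with under 5 CPM of Pou5f1, or both FS lines was chosen after the data were seen. Of 140 alternative values for the levels of members in lines, 127 moved by less than the SD between lines of a class. The other 13, all of Lefty2 or Sde2 in FS lines, moved by more. That SD was 2214 CPM for Lefty1 in EpiSCs and 0.772 CPM for Sde2 in FS lines, so these counts do not measure relative change. With cells of at least 4000000 counts, Tmem63a in 5ar1 was 0.362 CPM in place of 2.6 CPM and Ephx1 in 5ar1 1.09 CPM in place of 2.6 CPM, and no other level of a member moved by over 1.5 times. Shares of cells in FS lines rest on few cells.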
